A study of Mus musculus with 42 samples.

Results

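The genes described here are 10 genes that are typical of mature adipocytes, the cells that store fat: *Adipoq*, *Retn*, *Cfd*, *Lep*, *Plin1*, *Plin4*, *Cidec*, *Fabp4*, *Lpl* and *Car3*. They are 10 of the 26653 genes of a table that compares wild-type (WT) and *Tug1*-/- (KO) mice tissue by tissue. The members were chosen by their symbols, and the list was drawn up with the WT and KO levels of the same table known, so their levels and changes are given as a description without a test. *Tug1* is a long noncoding RNA. The mice were male and of the strain Tug1_tm1.1Vlcg on a C57BL/6J background (N3, no Neo). WT mice carried 2 normal *Tug1* alleles, and KO mice carried a lacZ reporter instead of *Tug1* on both alleles. RNA from prostate, eyes, heart, testes, spleen, liver and mouse embryonic fibroblasts (MEFs) had been sequenced in 42 samples, 22 WT and 20 KO. Prostate had 3 WT and 2 KO samples, testes 4 and 3, and every other tissue 3 and 3. The ages of the adult mice are not in the labels. The MEFs were primary cultures at passage 2 from littermate embryos.

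Adipocytes hold their triglyceride in a single large droplet whose surface is coated by perilipins and CIDE proteins, and they take up fatty acids that lipoprotein lipase releases from circulating lipoproteins. They also secrete hormones, the adipokines, which report the state of the fat store to liver, muscle and brain. Depots of fat lie around many organs, among them the prostate, the eyes and the heart.

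The table gives 1 value per gene, genotype and tissue, the authors' value over the replicates, in FPKM by the layout of the table. FPKM are fragments counted per unit of transcript length and of sequencing depth, so levels can be set side by side between genes. There is no value per sample, so no SD and no n per value are given and the depth is unknown. The authors' own test results in the table were not used, and no difference below was set against the spread between mice. Changes are log2((KO + 0.1)/(WT + 0.1)), a scale that understates the change of low genes. A change is counted as past 2 times if it exceeds 2-fold on that scale and the larger of the 2 values is at least 1. These are bulk tissues, in which fewer cells of a type and less RNA per cell cannot be told apart.

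*Tug1* itself lay between 11.2 (heart) and 27.7 (testes) in WT and between 0.00753 (liver) and 0.402 (testes) in KO. The defining markers of the tissues were present in both genotypes, with some exceptions. Eyes carried *Cryaa* of the lens at 5281 in WT and 5290 in KO, and heart carried *Tnnt2* at 6978 and 7008. Prostate carried *Pbsn* at 25020 and 21141, whereas *Sbp* was at 0.831 and 1.15. In liver, *Alb* and *Serpina1a* were listed at 0 in both genotypes while *Apoa1* was at 12014 and 13744, so a 0 in this table can also be a failed estimate.

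*Adipoq* encodes adiponectin, a hormone that adipocytes secrete. Its level in WT was 21.0 in heart, 7.31 in eyes, 5.77 in testes, 3.93 in prostate, 0.599 in spleen and 0.0240 in liver, and it was listed at 0 in MEFs. In KO the order was different, with 21.8 in eyes, 15.5 in prostate, 9.23 in heart, 5.55 in testes, 0.217 in spleen and 0.0225 in MEFs, and a listing at 0 in liver. The level in KO was thus above that in WT in prostate and eyes and below it in heart, with log2 changes of 1.95, 1.56 and -1.18, while testes differed by -0.06. Whether neighbours in either order differ beyond the spread between mice cannot be said.

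In prostate, 7 of the 10 genes were past 2 times with the higher value in KO, and none was past it with the lower value. *Lep* (0.377 in WT, 0.886 in KO) was under 1 in both genotypes, and *Plin4* and *Lpl* had smaller changes of 0.74 and 0.94. Among 12359 genes that reached a value of 1 in prostate, 1.07% were past 2 times higher and 0.251% lower in KO. In eyes, all 10 were past 2 times higher in KO and none lower, beside 0.595% and 0.18% of 14453 genes. In heart, 3 of the 10 were past 2 times lower in KO (*Adipoq*, *Retn* and *Plin1*) and none higher, beside 0.591% lower and 0.264% higher of 12864 genes. These shares are background only, because the members were chosen on this same contrast. Just inside the limit lay *Plin4* in eyes at 1.05 and just outside it *Car3* in heart at -0.997, which was 1.996-fold lower in KO. The median log2 change of the 10 genes was 1.72 in prostate, 1.57 in eyes and -0.94 in heart, and the median over every gene that reached 1 was -0.04, -0.02 and 0.03.

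**Figure D1:**
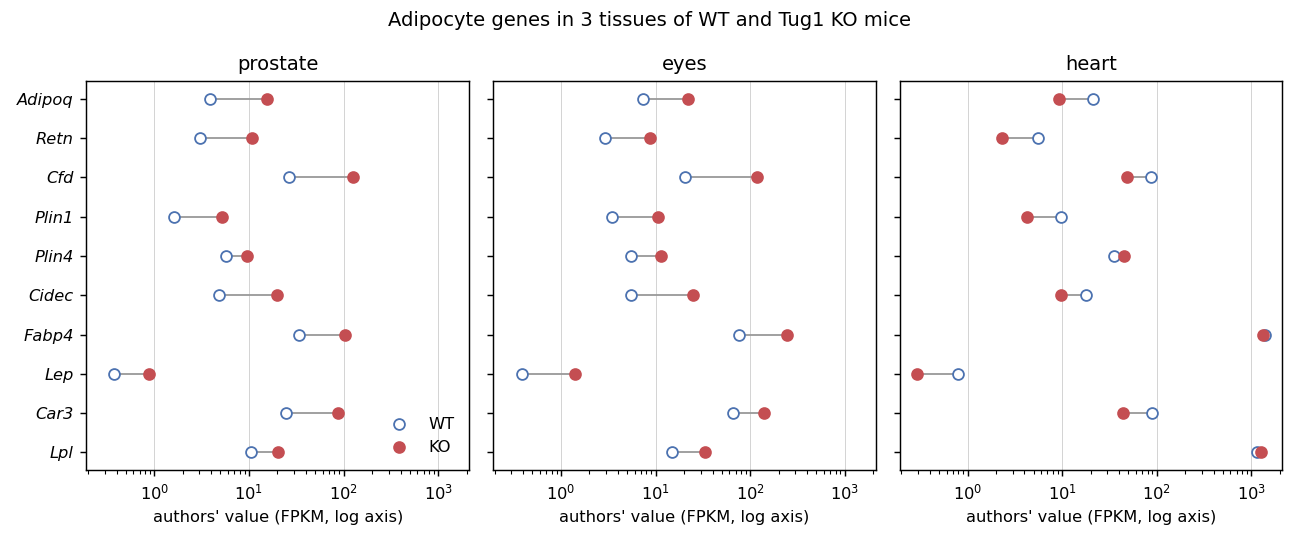
Levels of the 10 genes (authors' value in FPKM, log axis) in prostate, eyes and heart. Open circles are WT, filled circles KO, each 1 value without an error. All KO circles lie to the right of WT in prostate and eyes. In heart, 8 lie to the left and *Plin4* and *Lpl* to the right.

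The genes of the other hormones and secreted factors had the same direction as *Adipoq* in these 3 tissues. *Retn*, which encodes resistin, was at 3.02 in WT and 10.9 in KO prostate, 2.95 and 8.64 in eyes, and 5.59 and 2.31 in heart. *Cfd* encodes adipsin, the complement factor D that fat secretes. Its levels were 26.4 in WT and 126.2 in KO prostate, 20.6 and 117.7 in eyes, and 86.5 and 48.6 in heart. Its log2 changes of 2.25 in prostate and 2.51 in eyes were the largest of the 10 genes in either tissue, and its change in heart was -0.83. *Lep* encodes leptin, the hormone of satiety, and was the lowest of the 10 in each of these groups. Its level was 0.393 in WT and 1.42 in KO eyes, and 0.789 and 0.293 in heart.

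The droplet proteins split in heart. *Plin1*, perilipin of the adipocyte droplet, was at 1.60 in WT and 5.17 in KO prostate, 3.45 and 10.5 in eyes, and 9.81 and 4.23 in heart. *Cidec*, whose protein helps droplets fuse and grow, was at 4.82 and 20.0 in prostate, 5.54 and 24.7 in eyes, and 18.0 and 9.66 in heart. *Plin4*, a perilipin that is also found in heart and skeletal muscle, was at 5.74 and 9.66 in prostate and 5.49 and 11.5 in eyes, but at 35.4 and 45.3 in heart. The *Plin4* change in heart, 0.36, thus had the opposite sign to those of *Plin1*, -1.19, and *Cidec*, -0.89.

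*Fabp4* and *Lpl* handle fatty acids. *Fabp4* encodes a carrier of fatty acids in the cytosol of adipocytes, macrophages and capillary endothelium, and *Lpl* encodes lipoprotein lipase, which heart muscle makes too. *Fabp4* was at 33.9 in WT and 104.8 in KO prostate and at 76.2 and 243.2 in eyes. *Lpl* was at 10.5 and 20.2 in prostate and at 15.0 and 33.4 in eyes. In heart both were far above every other tissue, with *Fabp4* at 1392 and 1311 and *Lpl* at 1147 and 1272. Their log2 changes in heart were -0.09 and 0.15. *Car3* encodes carbonic anhydrase III, which is abundant in adipocytes, liver and slow muscle. It was at 24.6 and 87.3 in prostate, 65.8 and 140.5 in eyes and 88.0 and 44.0 in heart.

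**Figure D2:**
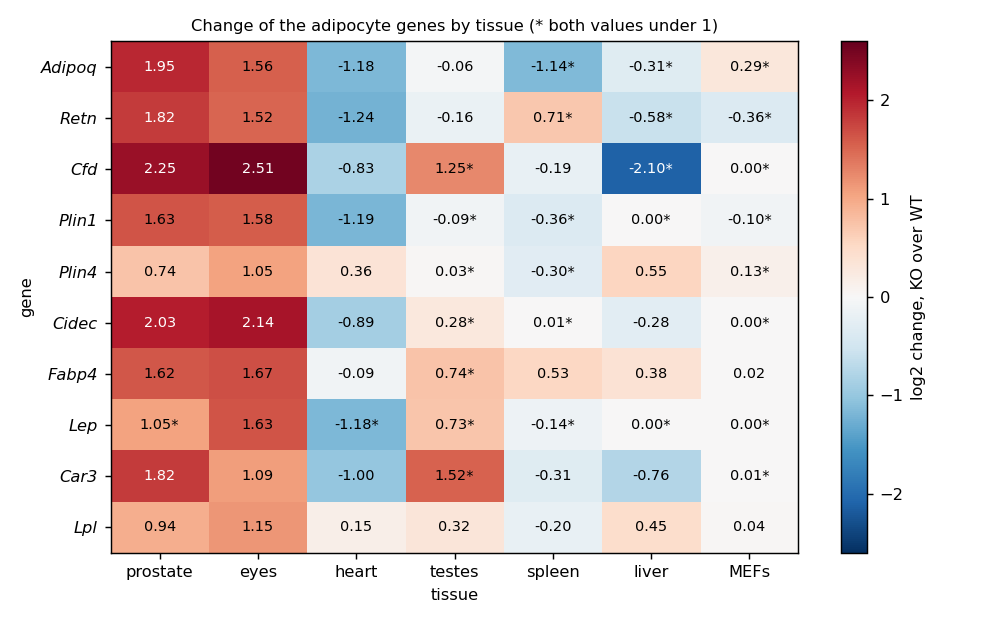
Log2 change of the 10 genes (rows) in 7 tissues (columns), KO over WT, with red for higher and blue for lower in KO. An asterisk marks a gene with both values under 1. Prostate and eyes are red in every row, with values from 0.74 to 2.51, and in heart 8 of 10 rows are below 0.

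In the remaining tissues no member was past 2 times in either direction. The background there was 0.623% of genes in testes, 2.1% in spleen, 1.57% in liver and 0.793% in MEFs, both directions together. Few members reached a value of 1, namely 3 in testes, 4 in spleen, 5 in liver and 2 in MEFs. Testes stood apart for *Adipoq*, which was at 5.77 in WT and 5.55 in KO, close to its level in WT eyes. The other members were low there, with *Retn* at 1.10 and 0.968, *Plin1* at 0.579 and 0.540 and *Cfd* at 0.0360 and 0.223. In liver, *Car3* reached 4877 in WT and 2888 in KO with *Adipoq* at 0.0240 and 0, and *Plin1* and *Lep* were listed at 0 in both genotypes. In spleen, *Fabp4* was at 14.7 and 21.3 and *Lpl* at 7.03 and 6.11, beside *Adipoq* at 0.599 and 0.217. MEFs carried *Lpl* at 5.56 and 5.72 and *Fabp4* at 1.85 and 1.87, and *Cfd*, *Cidec* and *Lep* were listed at 0 in both genotypes.

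The level of each gene was then divided by that of *Adipoq* in the same group. In prostate, 7 of the 9 other genes had a proportion in KO within 2 times of that in WT, in eyes 9 of 9, and in heart 6 of 9. No share over all genes was computed for these counts, and the members were chosen with these levels known. With *Plin1* in place of *Adipoq* the counts were 9 in prostate, 9 in eyes and 6 in heart. *Plin1* kept nearly the same proportion, from 0.334 to 0.482 over the 6 groups of these tissues, a span of 1.44 times. *Cidec* ran from 0.758 to 1.29, a span of 1.70 times, and *Car3* from 4.19 to 8.99. *Retn* differed more between tissues than between genotypes. It was at 0.769 of *Adipoq* in WT and 0.705 in KO prostate, 0.403 and 0.396 in eyes, and 0.266 and 0.251 in heart. *Cfd* per *Adipoq* was 2.82 in WT and 5.39 in KO eyes, 6.73 and 8.16 in prostate and 4.12 and 5.26 in heart, higher in KO in all 3 tissues.

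The proportions of *Plin4*, *Fabp4* and *Lpl* were set apart in heart. *Fabp4* was 66.3 times *Adipoq* in WT heart and 142.0 times in KO heart, against 6.77 to 11.1 times in the groups of prostate and eyes. *Lpl* was 54.6 and 137.8 times *Adipoq* in heart, against 1.31 to 2.66 times in prostate and eyes. *Plin4* was 1.68 and 4.91 times *Adipoq* in heart, and in prostate 1.46 times in WT and 0.625 times in KO. In testes the proportion to *Adipoq* was lower than in those 6 groups for each of the 9 genes except *Lep* in KO, for example 0.1003 and 0.0974 for *Plin1* and 0.0479 and 0.0643 for *Cidec*.

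The differences between genotypes can be put on the same footing. *Adipoq* was higher by 11.5 FPKM in KO prostate and by 14.5 FPKM in KO eyes, and in heart the difference, KO minus WT, was -11.8 FPKM. Per unit of that difference, *Plin1* differed by 0.309, 0.486 and 0.474 units in prostate, eyes and heart, and *Car3* by 5.43, 5.15 and 3.73. *Fabp4* differed by 6.13, 11.5 and 6.92 units, where the value in heart rests on a small relative difference of a gene at 1392 in WT and 1311 in KO. *Lpl*, by contrast, was higher in KO heart by 124.9 FPKM while *Adipoq* was lower.

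**Figure D3:**
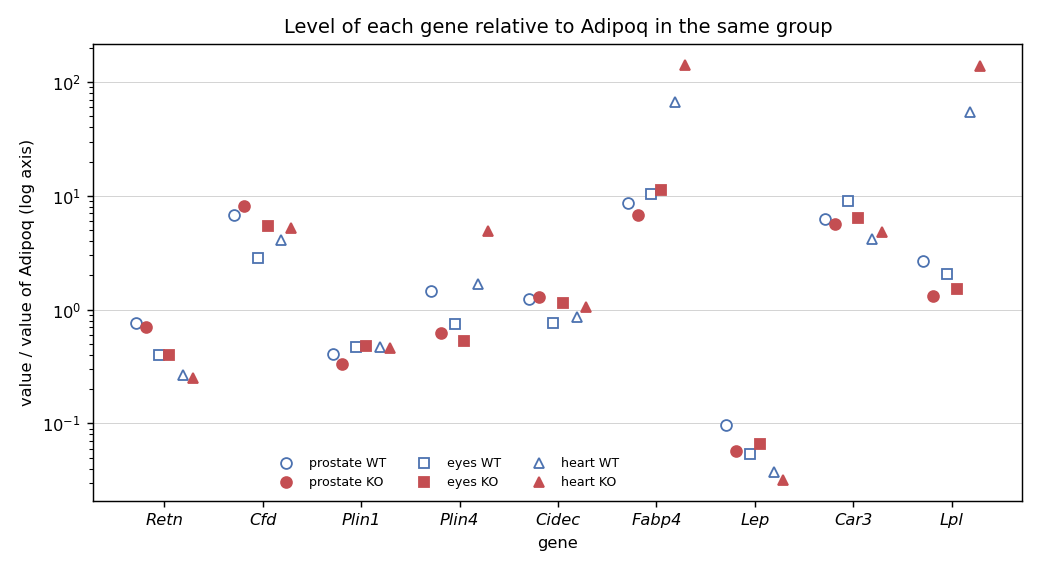
Level of each of the other 9 genes divided by the level of *Adipoq* in the same group (log axis, no unit). Circles are prostate, squares eyes and triangles heart, open for WT and filled for KO. *Plin1* stays between 0.334 and 0.482 in all 6 groups, and *Fabp4* and *Lpl* lie above 50 in heart only.

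Of 19 other genes of mature adipocytes found in the table, 11 reached a value of 1 in prostate, 15 in eyes and 17 in heart. The shares over all genes were 1.07% higher in prostate, 0.595% higher in eyes and 0.591% lower in heart. Of the list, 4 were past 2 times higher in KO prostate, 5 higher in KO eyes and 2 lower in KO heart. None went past 2 times the other way. In prostate these were *Cyp2e1* (3.51 in WT, 23.6 in KO), *Rbp4* (0.667 and 2.49), *Pck1* (0.933 and 3.33) and *Sncg* (2.31 and 5.17). *Pck1* encodes an enzyme by which adipocytes make the glycerol backbone of triglyceride, and *Rbp4* a carrier of retinol. In eyes they were *Cyp2e1* (9.54 and 45.3), *Adig* (1.46 and 5.34), *Mrap* (0.902 and 3.21), *Rbp4* (2.18 and 5.69) and *Pck1* (3.73 and 9.36). In heart they were *Pck1* (21.2 and 9.23) and *Lgals12* (1.42 and 0.574). The median log2 change of the genes of this list with a value of at least 1 was 0.64 in prostate, 0.80 in eyes and -0.41 in heart.

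Genes of fat cell regulation and lipid synthesis had smaller median changes than the 10 members in these tissues, with single genes among the larger changes. Of 13 transcription factors of fat cell differentiation found, 8 reached a value of 1 in prostate and 12 each in eyes and heart. Among these, *Pparg*, the main regulator of adipocyte genes, was past 2 times in eyes (1.19 in WT, 3.05 in KO), and no other in prostate, eyes or heart. *Pparg* was under 1 in both genotypes in prostate (0.332 and 0.948), and in heart it was at 8.68 and 9.37. *Cebpa*, whose protein acts beside PPARγ, was at 2.14 and 4.38 in prostate, 3.28 and 6.35 in eyes and 6.70 and 5.00 in heart. Its log2 change in prostate, 0.999, lay just outside the limit. Of 13 genes of lipid synthesis, *Thrsp* (1.501 and 6.67) and *Dgat2* (2.02 and 6.29) were past 2 times higher in KO prostate, *Thrsp* (10.8 and 23.7) in KO eyes, and *Scd1* (80.6 and 25.3) was past 2 times lower in KO heart. *Dgat2* encodes the enzyme of the last step of triglyceride synthesis and *Scd1* a desaturase of fatty acids. Of 12 other genes of the droplet and of lipolysis, 1 was past 2 times in prostate, eyes or heart, *Plin5* in eyes (1.07 and 2.38). All 12 reached a value of 1 in eyes and in heart, and 8 did in prostate.

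Lipoprotein lipase works at the capillary wall with partner proteins. Of 11 genes of this group found, 6 reached a value of 1 in prostate, 5 in eyes and 6 in heart. *Cd36*, a receptor for fatty acids, was past 2 times higher in KO prostate (4.16 and 8.52) and in KO eyes (15.1 and 32.2). *Gpihbp1*, which carries the lipase to the capillary, was past 2 times higher in KO eyes (2.30 and 4.72). *Gpihbp1* in eyes, at 1.004, and *Cd36* in prostate, at 1.02, lay just inside the limit. None of the 11 was past 2 times in heart, where *Angptl4* (6.80 in WT, 3.36 in KO) lay just outside the limit at -0.996. Of 6 receptors of adipokines and insulin, 5 reached a value of 1 in prostate and all 6 in eyes and heart. None was past 2 times in prostate, eyes or heart, and their median log2 changes were -0.0039, 0.14 and 0.13.

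**Figure D4:**
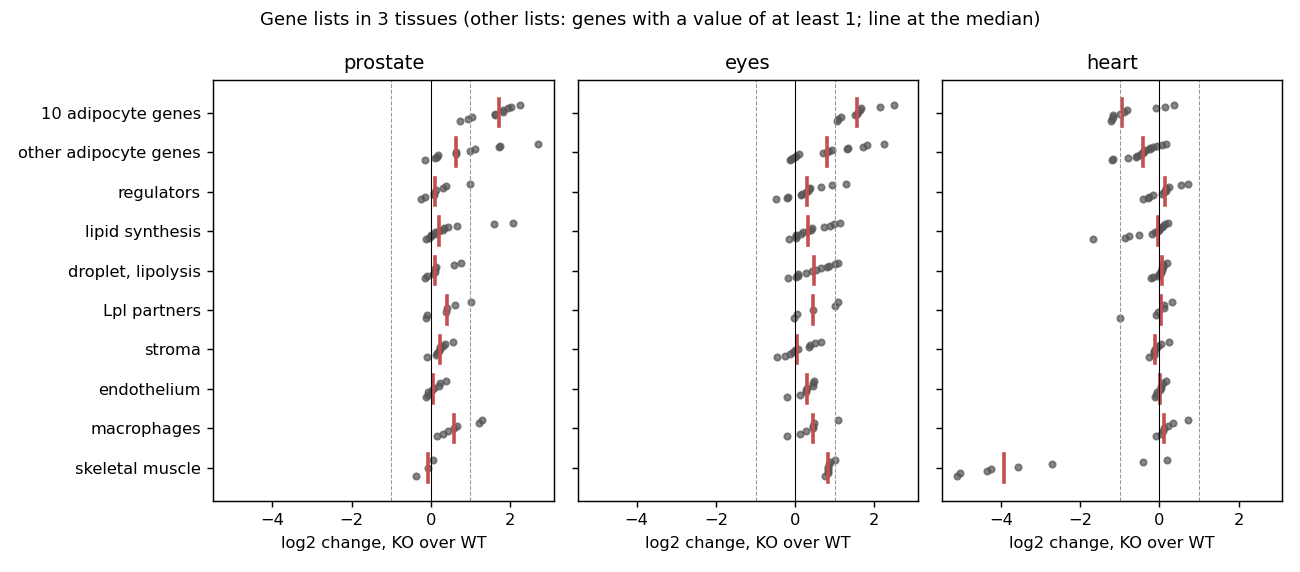
Log2 change, KO over WT, of the genes of 10 lists (rows) in prostate, eyes and heart, for all 10 adipocyte genes and for the genes of the other lists that reached a value of 1. Each point is a gene, the red line is the median of its list and dashed lines mark 2 times. The 10 adipocyte genes have medians of 1.72 and 1.57 in prostate and eyes and -0.94 in heart, and the skeletal muscle list has a median of -3.92 in heart.

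Markers of other cell types that a dissected piece may hold differed between the genotypes too in some tissues. In heart, 6 of 8 skeletal muscle genes were past 2 times lower in KO, led by *Tnnt3* of fast muscle (30.3 in WT, 0.786 in KO) and followed by *Myh1* (3.40 and 0.00586), *Myh4* (2.03 and 0.00442), *Atp2a1* (11.8 and 0.523), *Mylpf* (18.2 and 1.43) and *Pvalb* (5.97 and 0.821). The summed level of the 8 genes was 1358 in WT and 1403 in KO heart, since it is held up by *Ckm*, which heart muscle also makes. In eyes, all 8 skeletal muscle genes were higher in KO, with log2 changes of 0.766 to 0.996, their summed level was 2528 and 4579, and none was past 2 times. The brown fat gene *Ucp1* was at 18.1 in WT and 8.83 in KO heart, the only 1 of 10 brown fat genes past 2 times in prostate, eyes or heart. Of the 10, 3 reached a value of 1 in prostate and 7 in heart. In eyes, 6 of the 7 brown fat genes that reached 1 were higher in KO, with a median log2 change of 0.74. The summed level of the list was 290.0 in WT and 491.9 in KO eyes. It is held up by *Cox7a1* (109.6 and 199.1) and *Cox8b* (154.0 and 256.5), which are not particular to brown fat. In WT heart they were at 4020 and 2509. *Ucp1* was at 0.353 in WT and 0.0755 in KO eyes.

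Macrophage genes were higher in KO prostate for 7 of 7, with *Cd163* (1.08 and 2.82) and *Mrc1* (2.57 and 6.09) past 2 times, and their summed level was 62.5 in WT and 93.8 in KO. In eyes *Cd163* was past 2 times (1.07 and 2.39) and the summed level was 159.1 and 212.2, and in heart none was past 2 times with sums of 303.3 and 334.5. Stromal, endothelial and mesothelial genes had no member past 2 times in these 3 tissues. Their summed levels in KO over WT ran from 0.879 (mesothelium, prostate) to 1.21 (stroma, prostate). Of 7 mesothelial genes, 4 reached a value of 1 in prostate and 4 in eyes. The mesothelial sum in prostate is held up by *Krt19* (393 in WT, 340 in KO) and *Upk1b* (127 and 117). In eyes its largest part was *Gpm6a* (60.8 and 57.3), so the sums mostly follow these genes. The part of these other cell types in the values of the 10 genes was not tested.

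The 5 genes other than members whose log2 changes over the 7 tissues were most like those of *Adipoq*, among 11255 genes with a value of at least 1 in 5 or more tissues, were *Cxcl12* (Pearson's r = 0.99), *Acsm3* (0.96), *Phtf2* (0.95), *Tm4sf1* (0.95) and *C4b* (0.94). The points are 7 tissues in which WT and KO were compared within 1 table, and the values are a description. Their changes were small apart from *Acsm3*, at 1.21 in prostate, 0.83 in eyes and -0.44 in heart, while *Cxcl12* ran from -0.17 in heart to 0.32 in prostate. *Adipoq* was under 1 in both genotypes in spleen, liver and MEFs, so 3 of the 7 changes behind each r depend on the pseudocount. It did not itself reach a value of 1 in 5 tissues, so genes limited to as few tissues were not compared. For the other members, chosen with these values known and left out of the ranking, r ran from 0.74 (*Plin4*) to 0.95 (*Plin1*).

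The 10 genes lie on 7 chromosomes of GRCm38 (mm10), by GENCODE vM21. *Adipoq* lies on chr16:23146536-23158028 (+), *Retn* on chr8:3655770-3660110 (+), *Cfd* on chr10:79890853-79892655 (+) and *Lep* on chr6:29060220-29073877 (+). *Plin1* lies on chr7:79720218-79732903 (-), *Plin4* on chr17:56100591-56109803 (-) and *Cidec* on chr6:113424634-113435760 (-). *Fabp4* lies on chr3:10204088-10208576 (-), *Car3* on chr3:14863512-14872523 (+) and *Lpl* on chr8:68880491-68907448 (+). None shares chromosome 11 with *Tug1* (chr11:3639785-3649673, -). *Plin4* overlaps *Hdgfl2* of the opposite strand by 17 bases, and reads of either gene could have been counted for the other where strand was not used.

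Promoter windows of 250 bases before and 50 after the start were held in a RefSeq table (GRCm38.p6) for 7 of the 10 genes. They were searched on both strands for TTNNGCAA, a core of the site that C/EBP proteins bind, and for AGGTCA, the core of sites of nuclear receptors such as PPARγ. TTNNGCAA was found in 3 of the 8 windows of these 7 genes, in *Lep*, *Plin1* and *Cidec*, and in 10.8% of all 32851 windows. AGGTCA was in none of the windows of the 7 genes and in 16.3% of all windows. The windows printed are those of *Adipoq*, whose level all others were set against, and of *Plin1* and *Lep*. These 2 had log2 changes close to those of *Adipoq* in eyes and heart. In prostate they were at 1.63 and 1.05, beside 1.95 for *Adipoq*, and *Lep* was under 1 in prostate and heart. *Retn*, whose window has no match, was also close to *Adipoq*, at 1.82 in prostate, 1.52 in eyes and -1.24 in heart. Capitals mark TTNNGCAA or its reverse complement, 187 and 58 bases before the start in *Plin1* and 55 bases before it in *Lep*, each strand written 5′ to 3′ as the gene reads. *Adipoq* (chr16:23146286-23146585, +) has no match, *Plin1* (chr7:79732727-79733026, -) has 2 and *Lep* (chr6:29059971-29060270, +) has 1. The matches are a description of letters, not of binding.
Adipoq: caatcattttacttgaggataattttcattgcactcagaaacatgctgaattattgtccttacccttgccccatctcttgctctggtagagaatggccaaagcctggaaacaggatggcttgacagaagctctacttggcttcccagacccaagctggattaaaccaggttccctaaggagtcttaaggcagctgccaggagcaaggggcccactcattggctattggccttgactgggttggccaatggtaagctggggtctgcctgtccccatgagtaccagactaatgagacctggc
Plin1: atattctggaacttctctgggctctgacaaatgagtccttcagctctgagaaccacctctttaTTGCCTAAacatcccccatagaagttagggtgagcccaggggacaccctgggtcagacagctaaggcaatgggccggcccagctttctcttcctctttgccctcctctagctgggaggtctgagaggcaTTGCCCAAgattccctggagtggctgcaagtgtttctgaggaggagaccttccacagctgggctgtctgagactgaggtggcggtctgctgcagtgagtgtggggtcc
Lep: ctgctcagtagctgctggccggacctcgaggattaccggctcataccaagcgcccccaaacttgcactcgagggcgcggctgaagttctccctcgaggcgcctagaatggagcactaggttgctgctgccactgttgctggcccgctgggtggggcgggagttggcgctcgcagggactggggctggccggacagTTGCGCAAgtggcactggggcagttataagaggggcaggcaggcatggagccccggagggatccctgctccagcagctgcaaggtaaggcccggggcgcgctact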

How the data were processed

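Polyadenylated RNA of 42 samples (TruSeq) had been sequenced by the authors. The deposited table of comparisons holds 1 value per gene, genotype and tissue with the replicates combined by the authors. It has the layout of Cuffdiff output, so the values are taken as FPKM, although the header names no unit. The submitters' processing notes name mm10, CASAVA 1.8.2, TopHat2 and Cuffdiff, and the methods of the study describe another route, through STAR and DESeq2. The table also holds the authors' log2 fold changes, test statistics, p-values and q-values, which were not used. The table has no counts, so depth and precision are unknown. WT and KO rows of an eighth tissue, 2 groups, were not analysed here.

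Changes were computed as log2((KO + 0.1)/(WT + 0.1)), with a limit of 2 times and a larger value of at least 1. All 10 members were named in every tissue. Of the other lists, genes past 2 times where *Adipoq* was past it were named, at most 6 by size, and so were the 5 genes most like *Adipoq*. *Cebpa*, *Angptl4*, genes that hold up a summed level and the marker genes of the tissues were named in addition. Members and lists were chosen with earlier results of these data known. Names not matched in the table (*Trarg1*, *Cebpd*, *Angptl8*, *Adgre1*) were left out, and *Trarg1* and *Adgre1* were found under the older symbols *Tusc5* and *Emr1*. The steps ran in Python 3.11.15 with pandas 2.3.3 and were tested on simulated data. The alternatives were pseudocounts of 1 and 0.01, other scalings, filters and fold limits, and *Plin1* in place of *Adipoq*.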

Additional observations from a re-analysis of the deposited data

How the results depend on the processing

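Of 280 changes of the 10 genes under other pseudocounts and scalings, 274 kept or still lacked a call, and none of the called changes turned direction. A call needs a value of at least 1 as well as a change past 2 times. That filter was kept here, so genes under 1 in both genotypes could not gain a call, and the 274 include outcomes fixed beforehand. Such genes were 1 of 10 in prostate and in heart, 7 in testes, 6 in spleen, 5 in liver and 8 in MEFs. The calls that could be lost were 7 in prostate, 10 in eyes and 3 in heart. Some changes of genes under 1 in both genotypes moved across 2 times without a call, for example *Adipoq* in liver, at -0.31 with a pseudocount of 0.1 and -1.77 with 0.01. With a pseudocount of 1, *Retn* in heart (-0.99), *Plin4* in eyes (0.94) and *Lep* in eyes (0.80) lost the call. With values scaled to the total of each group, *Car3* in heart (-1.08) and *Lpl* in prostate (1.01) gained it, and centring on the median gene did so for *Car3* (-1.02). Scaling to the total shifted KO over WT by 0.16 in liver and by 0.10 in testes on the log2 scale, before the pseudocount.

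Counts recomputed under the alternatives equalled the reported ones or were within 1.5 times of them in 105 of 110 cases. Many of these cases set 0 beside 0, where no ratio exists. Among the other counts, the 3 genes lower in heart became 2 with a pseudocount of 1 and 4 with either scaling or no filter. The 7 genes higher in prostate ran up to 9, and the 10 higher in eyes down to 8. With no filter, the other adipocyte genes past 2 times higher went from 4 to 6 in prostate and from 5 to 7 in eyes. With a limit of 1.5 times, 6 genes were lower in heart and 1 in liver. With no filter on low values, 2 genes were higher in testes, 1 lower in spleen and 1 lower in liver, all with both values under 1. No paired analysis was possible because the table has 1 value per group, and leaving out a replicate in turn was not possible for the same reason. How far the values of single mice lie apart is unknown.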

Other observations

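In testes, 8 of the 19 other adipocyte genes reached a value of 1, none was past 2 times, and some were high in both genotypes. *Lipe*, which encodes hormone-sensitive lipase, was at 202.8 in WT and 178.2 in KO, *Aqp7*, a channel for glycerol, at 108.2 and 100.1 and *Adig* at 60.5 and 55.8. Others were near 0, such as *Lgals12* at 0.131 and 0.118 and *Pck1* at 0.103 and 0.130. These 5 genes were picked after their values had been seen. Beside them, *Plin1* was at 0.579 and 0.540 and *Cidec* at 0.277 and 0.357 in testes.

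In spleen, 7 of 8 genes of pancreatic acinar cells were past 2 times higher in KO, with a summed level of 18.7 in WT and 2456 in KO. *Adipoq* was under 1 in both genotypes there, and the samples that carried the acinar genes cannot be named from a table with 1 value per group.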
